A study of Mus musculus with 16 samples.

Results

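The data described here are the CpGs of mouse chromosome 7 measured by target capture bisulfite sequencing (tcBS-seq) in immortalised mouse embryonic fibroblasts (MEFs). The table of the series holds 1203687 CpGs, each read at least 10 times in every one of its 16 libraries, of which 76618 lay on chromosome 7 and 1127069 on the other 15 chromosomes of the table. The lines compared were chosen by their coverage of this chromosome, which was lowered by about 10 to 20% in MEF-1 clonal lines 1, 3, 6 and 7 (the lowered lines) and not in MEF-1 clonal lines 2, 4 and 5 (the reference lines). Coverage is therefore given as a description with no test, whereas the methylation levels of the lowered lines had no part in that choice.

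Both parental cultures, MEF-1 and MEF-2, came from sibling C57BL/6J embryos taken on embryonic day 13.5. They were immortalised by serial passage until cells grew out of crisis, with no added gene or treatment. Single sorted cells of each culture were grown into 7 clonal lines, so that every line is 1 clone sequenced once and each parental culture is 1 library of mixed cells. The labels name no batch. The strain is inbred, and the copies of a chromosome could not be told apart by sequence variants. Fibroblast markers were not checked, since the files used here hold DNA methylation and no expression.

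Bisulfite sequencing reports, for each CpG, the percentage of reads in which the cytosine was methylated. A CpG that is methylated on 1 of 2 copies of a chromosome reads at about 50%, and where some cells of a culture have lost a copy the level moves toward the state of the copy that remains. Imprinted regions are the textbook case: their methylation marks the copy inherited from the mother (Kcnq1ot1, Peg3, Snrpn) or from the father (H19), and mouse chromosome 7 carries several such clusters. A smaller share of paternal copies raises the level of a region methylated on the maternal copy and lowers that of a region methylated on the paternal copy. Immortalised fibroblasts often carry gained or lost chromosomes.

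The 4 sequences below come from regions at which the sets of lines did not overlap. Each is a 300 bp window of the plus strand of the mm10 reference (RefSeq sequence), in which capitals mark the CpGs measured here. The Kcnq1ot1 window, chr7:143295466-143295765, lies at the start of the Kcnq1ot1 non-coding RNA inside an intron of Kcnq1, and the H19 window, chr7:142580304-142580603, lies upstream of H19 in its imprinting control region. The Fxyd1 window, chr7:31053974-31054273, lies over part of a region that overlaps a coding exon. The intergenic window near the predicted gene Gm36431 is chr7:135736217-135736516. Among the regions at 40 to 60% in all reference lines, the last 2 hold the greatest rise and the greatest fall in which the lines did not overlap.
Kcnq1ot1: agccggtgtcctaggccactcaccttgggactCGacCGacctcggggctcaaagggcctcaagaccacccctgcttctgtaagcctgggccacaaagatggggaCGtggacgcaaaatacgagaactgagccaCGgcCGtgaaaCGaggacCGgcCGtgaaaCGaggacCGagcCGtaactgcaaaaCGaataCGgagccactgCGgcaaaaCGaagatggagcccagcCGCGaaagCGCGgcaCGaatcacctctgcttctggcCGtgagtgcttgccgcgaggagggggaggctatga
H19: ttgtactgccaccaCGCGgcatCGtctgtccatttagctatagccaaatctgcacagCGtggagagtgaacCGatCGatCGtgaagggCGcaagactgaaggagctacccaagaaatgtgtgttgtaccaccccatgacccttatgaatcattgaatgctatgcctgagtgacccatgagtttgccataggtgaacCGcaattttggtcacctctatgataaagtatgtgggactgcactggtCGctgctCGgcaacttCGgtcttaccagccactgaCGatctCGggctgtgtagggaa
Fxyd1: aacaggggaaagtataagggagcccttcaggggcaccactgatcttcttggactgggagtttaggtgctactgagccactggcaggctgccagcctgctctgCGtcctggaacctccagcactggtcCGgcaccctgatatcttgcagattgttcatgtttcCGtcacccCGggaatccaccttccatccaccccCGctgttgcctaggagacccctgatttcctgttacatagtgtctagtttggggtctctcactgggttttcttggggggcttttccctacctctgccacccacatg
Gm36431: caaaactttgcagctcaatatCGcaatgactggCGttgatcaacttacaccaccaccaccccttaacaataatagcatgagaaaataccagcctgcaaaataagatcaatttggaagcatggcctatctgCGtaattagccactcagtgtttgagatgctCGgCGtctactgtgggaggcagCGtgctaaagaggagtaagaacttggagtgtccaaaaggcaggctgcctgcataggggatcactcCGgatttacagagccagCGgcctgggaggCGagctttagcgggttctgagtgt
The Kcnq1ot1 window held 21 measured CpGs, and 20 of them had a higher mean level in the lowered than in the reference lines, but the lines overlapped at all 21. Over the whole window line 7, at 38.0%, lay below every reference line (46.2 to 54.7%). In the H19 window the mean was lower in the lowered lines at 13 of 14 measured CpGs. Windows of Peg3 and Snrpn, whose bases are not shown, did not follow Kcnq1ot1, although these regions are also methylated on the maternal copy. In the Peg3 window the mean was lower in the lowered lines at 16 of 23 measured CpGs. In the Snrpn window it was higher at 2 and lower at 2 of 4. The Fxyd1 window had 5 measured CpGs with 4 higher, and the Gm36431 window 9 with 8 lower. The Fxyd1 and Gm36431 regions were chosen for their differences between the same lines, so that these directions follow from the choice.

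The MEF-1 clonal libraries had 59243669 to 80637128 calls, each being 1 read at 1 CpG, and the median coverage of a chromosome 7 CpG was 22, 24, 32 and 22 reads in lines 1, 3, 6 and 7 and 30, 29 and 29 reads in lines 2, 4 and 5. Chromosome 18, which was kept out of the table, had a relative coverage of 0.517, 0.513 and 0.533 in lines 1, 4 and 5 and of 0.908 to 1.00 in lines 2, 3, 6 and 7. Over the CpGs of chromosome 7, the mean absolute difference in level was 6.54 to 7.26 points between lines 1, 4 and 5. It was 7.46 to 8.65 points between lines 2, 3, 6 and 7, and 8.04 to 8.90 points across these groups. On this chromosome lines 1, 4 and 5 were thus closer to each other than any other pair. Line 6 was closer there to lines 1, 4 and 5 than to lines 2, 3 and 7. Both groups hold lowered and reference lines, and some results are also given within each group.

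Relative coverage of a chromosome is its mean coverage scaled within a library to the median of the autosomes in the table, relative to the same quantity in the median line among the MEF-2 clones. For chromosome 7 it was 0.835, 0.818, 0.900 and 0.836 in lines 1, 3, 6 and 7, and 0.947, 0.982 and 1.03 in lines 2, 4 and 5. The lowered lines thus averaged 0.847 ± 0.0363 (SD, n = 4) and the reference lines 0.985 ± 0.0398 (SD, n = 3). Line 6 at 0.900 was the member closest to the limit from inside, and line 2 at 0.947 the closest from outside. The MEF-1 parental library had 0.995, and the MEF-2 clonal lines 0.997 ± 0.0138 (SD, n = 7).

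Coverage was lowered along the whole chromosome rather than over a stretch of it. In all 29 bins of 5 Mb, lines 1, 3, 6 and 7 lay below the mean of the reference lines in the same bin. Line 2, a reference line, also lay below that mean in 29 bins, line 4 in 18 and line 5 in 0. The bins of line 1 spanned 0.782 to 0.964, those of line 3 0.798 to 0.897, those of line 6 0.870 to 0.936 and those of line 7 0.803 to 0.953. The lowering was of similar size at low, intermediate and high methylation. At CpGs with a mean level under 10%, of 10 to 90% and over 90% in the reference lines, relative coverage was 0.835, 0.844 and 0.826 in line 1 and 0.920, 0.891 and 0.895 in line 6.

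**Figure D1:**
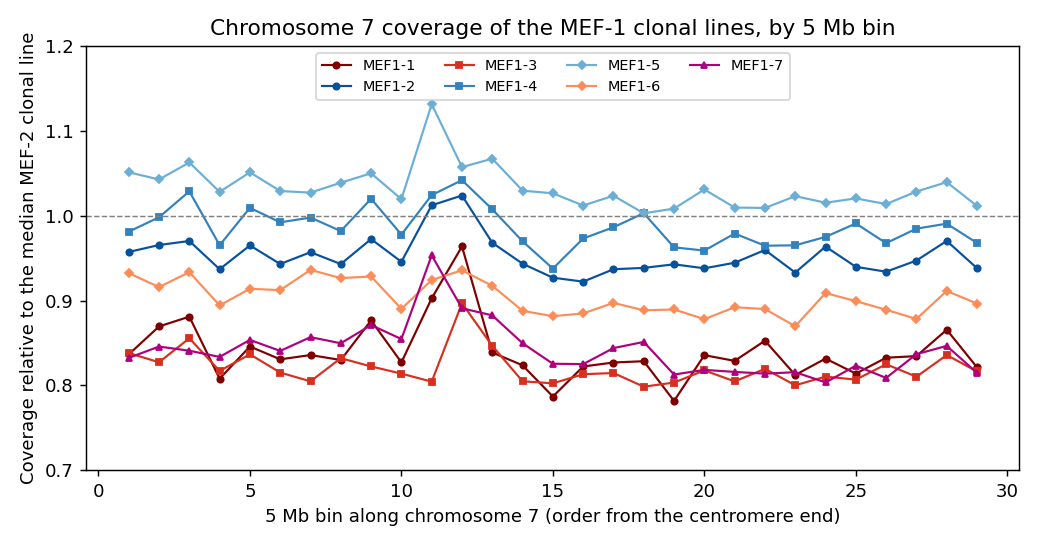
Coverage of chromosome 7 relative to the median MEF-2 clonal line (vertical axis, no unit) in 29 bins of 5 Mb in their order from the centromere end (horizontal axis), with 1 line of points per MEF-1 clonal line. Lines 1, 3, 6 and 7 (red, orange and purple) lie below lines 2, 4 and 5 (blue) in every bin.

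If each cell had 2 copies of chromosome 7 and some cells had lost 1, the share of cells with the loss is 2 times the drop in coverage against the reference lines. By this measure 30.6% of the cells of line 1 had lost a copy, with a range of 23.8 to 37.4% when each reference line was used alone. The share was 33.9% (27.3 to 40.6%) in line 3, 17.2% (9.92 to 24.6%) in line 6 and 30.4% (23.6 to 37.2%) in line 7. The reference lines gave 7.71, 0.7 and -8.41% for lines 2, 4 and 5, which shows the error of the measure. With 4 copies per cell and 1 lost, the shares would be 61.1, 67.8, 34.5 and 60.7% in lines 1, 3, 6 and 7. Coverage alone cannot tell these cases apart, nor a mixture of cells from a change shared by every cell.

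Levels at CpGs near 50% were examined next. Loss of a copy moves such a level only where the copies differ in methylation. Whether these CpGs are of that kind was not tested, and the paper reports that intermediate levels were generally inherited unfaithfully. CpGs at 40 to 60% in all reference lines are called mid-level CpGs here. There were 1839 on chromosome 7, 2.40% of its CpGs, against 1.63 to 2.66% on the other chromosomes. In line 1 their quartiles were 40 and 64.3% on chromosome 7 and 42.5 and 60.6% on the other chromosomes together. In line 3 they were 39.1 and 64.2% on chromosome 7 and 43.2 and 59.1% elsewhere, and in line 7 they were 41.2 and 63.2% against 42.9 and 60.8%. Levels were thus spread more widely on chromosome 7 in lines 1, 3 and 7. In line 6 the quartiles of chromosome 7, 41.7 and 60%, were close to those elsewhere, 41.8 and 59.3%.

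**Figure D2:**
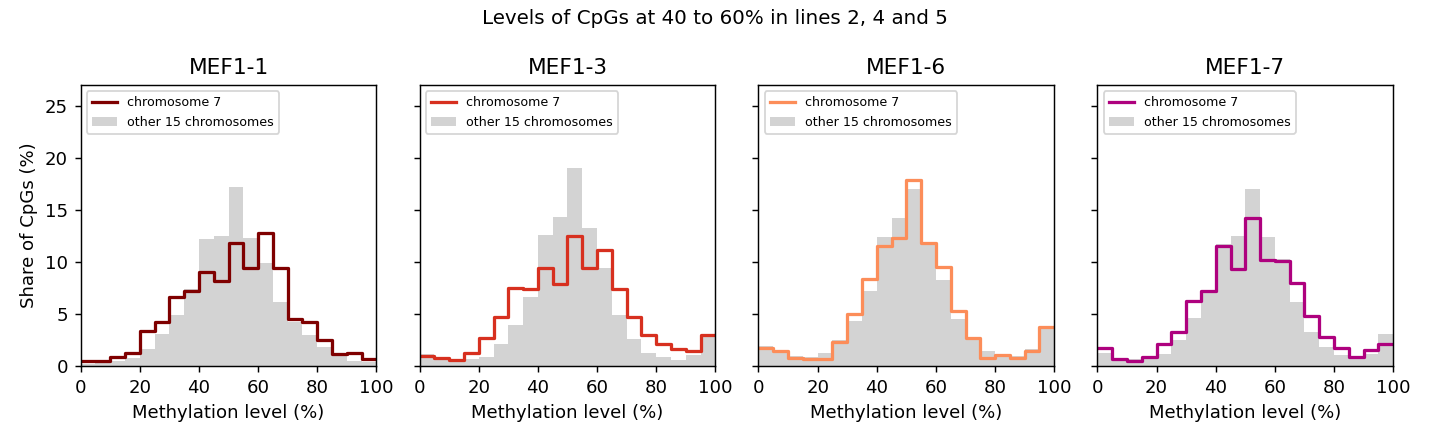
Share of mid-level CpGs (vertical axis, %) by methylation level (horizontal axis, %) in lines 1, 3, 6 and 7, for 1839 CpGs of chromosome 7 (coloured outline) and 26179 CpGs of the other 15 chromosomes (grey). The outline is lower than the grey near 50% and higher on both sides in lines 1, 3 and 7, and lies close to the grey in line 6.

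So that no line was scored on CpGs it had chosen, CpGs at 40 to 60% were taken from each pair of reference lines and scored in the lines outside the pair. The share that stayed at 40 to 60% was 39.9, 38.9, 51.2 and 44.0% on chromosome 7 in lines 1, 3, 6 and 7. Chromosomes whose coverage in the same line was within 0.1 of 1 gave 53.6 to 56.8% in line 1, 54.5 to 56.5% in line 3, 43.4 to 59.5% in line 6 and 51.1 to 54.4% in line 7. In lines 1, 3 and 7 the value of chromosome 7 thus lay below every chromosome with a coverage within 0.1 of 1, and in line 6 it lay within their range, whose lowest value was that of chromosome 11 (relative coverage 0.907). Chromosome 7 of line 6 lay itself at the limit of this range of coverage, with 0.900. The reference lines 2, 4 and 5 had 50.0, 57.3 and 55.7% on chromosome 7, within their ranges of 49.4 to 53.2%, 53.9 to 57.9% and 53.7 to 58.3%.

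Other chromosomes with changed coverage gave low shares too. Chromosome 17 of line 1, at a relative coverage of 0.838, kept 28.8% of its CpGs at 40 to 60%, and chromosome 16 of line 6, at 0.777, kept 27.4%. Chromosome 14 of line 2 (0.839) kept 32.7% and chromosome 1 of line 5 (0.823) 36.4%. Others kept more, with 43.4% on chromosome 8 of line 1 (0.867) and 46.6% on chromosome 1 of line 7 (0.872). Chromosome 7 of lines 1, 3 and 7 lay between these values. A gained chromosome, chromosome 5 of line 7 at 1.36, kept 36.2%.

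The share on chromosome 7 minus the median of the other chromosomes averaged -11.4 points in the lowered lines and -0.228 in the reference lines. The difference of -11.2 points had p = 0.0571 by a two-sided exact permutation test of 4 against 3 lines, which is the smallest p this test can give with these lines, so that it cannot pass 0.05. With each CpG thinned to 10 reads in every library the difference was -4.30 points (exact permutation p = 0.114), and with at least 20 reads per CpG it was -13.0 points (exact permutation p = 0.0571). Lines 1, 3 and 7 also had the fewest reads per CpG on chromosome 7 (22 to 24). Over 500 bp regions the difference was -3.44 points (exact permutation p = 0.286), and it was -7.13 points for CpGs at 45 to 55% and -6.74 points for those at 30 to 70%. The share was chosen after the data were seen. The planned measure, the SD of the levels beyond read sampling, was 16, 19.2, 18 and 18.1 points on chromosome 7 in lines 1, 3, 6 and 7 with medians of 12.7, 17, 18.1 and 17.2 on the other chromosomes. Its difference between the sets of lines was 1.74 points (exact permutation p = 0.171, adjusted p = 0.171 over 3 tests), and over 500 bp regions 0.598 points (exact permutation p = 0.229).

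**Figure D3:**
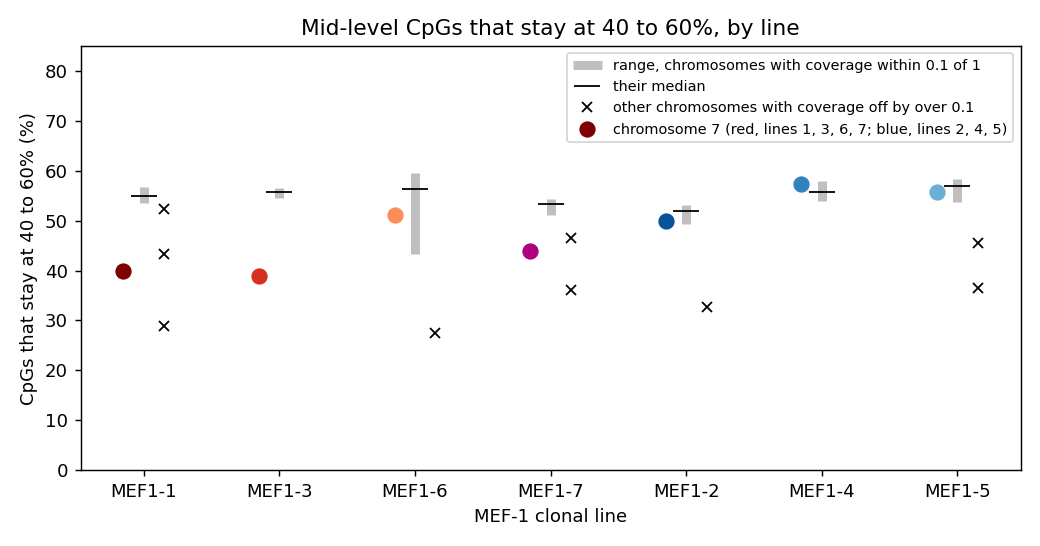
Share of CpGs at 40 to 60% in a pair of reference lines that stayed at 40 to 60% (vertical axis, %) in each MEF-1 clonal line (horizontal axis). Circles are chromosome 7, grey bars the range of chromosomes with a coverage within 0.1 of 1 with their median as a dash, and crosses other chromosomes with changed coverage. Chromosome 7 lies below the grey bar in lines 1, 3 and 7, and within it in lines 6, 2, 4 and 5.

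Single CpGs and regions were then tested across the whole table with a quasi-binomial logistic model. No CpG of chromosome 7 was called at an adjusted p under 0.05, as in the table as a whole (percent called 0 of 1203687), and no 500 bp region with at least 5 CpGs was called (0 of 89077). The lowest adjusted p on chromosome 7 was 0.868 for CpGs and 1.00 for regions, and limma on the same regions also called 0. At an unadjusted p under 0.05 stood 2077 of 76618 CpGs of chromosome 7 (2.71%) against 2.13 to 2.41% on each other chromosome, and 226 of 5550 regions (4.07%) against 2.44 to 3.69%. By limma 311 regions (5.60%) stood there, against 3.21 to 4.2%. Chromosome 7 had the highest share of the 16 chromosomes in each case. The excess was small without line 1, where the CpGs gave 2.10% against 1.91% elsewhere and the regions 3.84% against 3.69%. Within the groups of lines that share the coverage of chromosome 18, the model cannot show whether the excess is present. There 1 side of each comparison is a single line. Of the 226 regions of chromosome 7, 106 were higher in the lowered lines.

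CpGs at which the sets of lines did not overlap were most frequent near 50%. At 333 of the 1839 mid-level CpGs (18.1%) every lowered line lay above, or every one below, all reference lines, 209 of them above and 124 below. Those above made up 62.8% of the CpGs with lines apart, against 57.8% on the other chromosomes together. On the other chromosomes together 8.35% of such mid-level CpGs had lines apart, with 7.30 to 9.45% on each. The ratio of 2.17 between chromosome 7 and the others fell to 1.36 when each CpG was thinned to 10 reads and the mid-level CpGs were chosen anew. Since the reference lines chose these CpGs, all CpGs were also sorted by the mean level of the reference lines. The share was 9.33% at 40 to 60% (4.05 to 5.10% on each other chromosome), 5.75% at 10 to 40% (4.48 to 5.72%) and 5.98% at 60 to 90% (4.01 to 5.66%). At the extremes it was the lowest of the 16 chromosomes, with 2.35% under 10% (2.37 to 3.03%) and 2.59% over 90% (2.80 to 3.12%). Along the chromosome, 18.2% of the mid-level CpGs had lines apart from 0 to 50 Mb, 21.3% from 50 to 100 Mb and 16.2% beyond 100 Mb. The mean level of chromosome 7 itself barely moved. Set against the mean of the other chromosomes it was -4.43 points in the lowered lines and -4.56 points in the reference lines, a difference of 0.134 points (exact permutation p = 0.114, adjusted p = 0.171 over 3 tests).

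Summed over 500 bp, 288 regions of chromosome 7 were at 40 to 60% in all reference lines. The lines did not overlap at 35 of them (12.2%, 19 above and 16 below), against 6.66% of such regions on the other 15 chromosomes together, 4.03 to 7.98% on each and 4.97% of all regions in the table. Their share was 15.6% from 0 to 50 Mb, 3.17% from 50 to 100 Mb (2 of 63 regions) and 13.1% beyond 100 Mb. Of the 288 regions 199 lay in a gene, 89 were intergenic and 129 lay within 1000 bp of a transcript start. The median difference over the 288 was 0.424 points.

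The 6 regions that rose most and the 6 that fell most were named by their value, and each had an adjusted p of 1.00. The greatest rise was at Fxyd1, which encodes phospholemman, a regulator of the sodium pump. The region (chr7:31054076-31054442, 6 CpGs) overlaps a coding exon of the gene. Its level was 82.1, 66.9, 70.6 and 71.3% in lines 1, 3, 6 and 7 and 57.1, 47.3 and 45.9% in lines 2, 4 and 5. The lowered lines all lay above the reference lines, by 22.6 points on average. The MEF-1 parental library stood between the sets at 62.6%.

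An intron of Fgfr2, a receptor for fibroblast growth factors, came next (chr7:132396260-132396451, 6 CpGs). Its levels were 56.9, 67.8, 71.0 and 61.4% in the lowered lines and 53.9, 42.4 and 50.7% in the reference lines. The sets did not overlap, although line 1 was only slightly above line 2. A region in an intron of Sult2b1, a steroid sulfotransferase gene, rose by 13.6 points. One overlapping an exon of the predicted gene Gm9211 rose by 13.0 and one 701 bp from the start of the proliferation marker Mki67 by 12.8. The sets were apart at each of them. The region nearest Zfp428 was 13.1 points higher on average, with lines that overlapped.

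Among these mid-level regions, the largest fall with the lines apart was in the intergenic region nearest Gm36431 (chr7:135736045-135736493, 12 CpGs). It had 31.6, 33.4, 32.6 and 28.7% in lines 1, 3, 6 and 7 and 41.0, 46.9 and 45.7% in lines 2, 4 and 5, with 39.3% in the parental library. The lowered lines lay within 5 points of each other and below every reference line. A region overlapping a coding exon of Nkpd1 (-12.7 points) was also lower with the sets apart. So were a region near Prodh2, a hydroxyproline dehydrogenase gene (-12.0), and an intron of Akt2, a kinase of insulin signalling (-11.9). An intron of Snhg14 in the Snrpn cluster (-13.3) and a region near Kcnq1 (-12.8) overlapped between the sets.

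The imprinted regions give the copy its parental origin. Of 11 such regions of chromosome 7 measured at 5 or more CpGs, the lines did not overlap at 2, Kcnq1ot1 and H19. Among 13 imprinted regions of other chromosomes they did not overlap at 1 (7.69%), that of Mcts2 on chromosome 2. The 13 are not all separate, since the region of Nespas lies within that of Gnas. Mcts2 is methylated on the maternal copy and was 12.5 points higher in the lowered lines (55.1 against 42.6%), a larger difference than at either region of chromosome 7, while the coverage of chromosome 2 was within 0.1 of 1 in every MEF-1 line. Kcnq1ot1 is methylated on the maternal copy, and its unmethylated paternal copy makes the RNA that silences the surrounding cluster. Over 52 CpGs (chr7:143295498-143296757, 836 to 1441 reads per line) the level was 53.3, 59.8, 59.2 and 51.9% in lines 1, 3, 6 and 7 and 45.4, 46.5 and 42.8% in lines 2, 4 and 5. All lowered lines lay above all reference lines, but with at least 20 reads per CpG the lines overlapped (difference 7.80 points, exact permutation p = 0.171). The means were 56.1% ± 4.04 (SD, n = 4) and 44.9% ± 1.89 (SD, n = 3), a difference of 11.1 points (exact permutation p = 0.0571, adjusted p = 0.314 over the 11 regions). The parental library had 45.7%, and the MEF-2 clonal lines 40.9% ± 4.46 (SD, n = 7).

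H19 lies at the other end of the cluster from Kcnq1ot1, and its control region is methylated on the paternal copy, where methylation keeps the insulator protein CTCF from binding. The CpGs taken reached from upstream of H19 into an exon of the gene, so that they are not the control region alone. Over these 36 CpGs (chr7:142577864-142581071, 700 to 1155 reads per line) the level was 36.3, 35.5, 44.1 and 33.3% in lines 1, 3, 6 and 7 and 47.4, 47.6 and 47.9% in lines 2, 4 and 5. Here all lowered lines lay below all reference lines, the reverse of Kcnq1ot1. Line 6 was closest to them, and its 95% Wilson interval of 41.2 to 46.9% overlapped that of line 2, 44.3 to 50.4%. The means were 37.3% ± 4.69 (SD, n = 4) and 47.6% ± 0.246 (SD, n = 3), a difference of -10.3 points (exact permutation p = 0.0571, adjusted p = 0.314). The parental library had 49.3%, and the MEF-2 clonal lines 47.1% ± 3.96 (SD, n = 7).

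The other 9 regions overlapped between the sets. Peg3, a zinc finger gene of the proximal cluster, had 69.4, 57.0, 62.4 and 56.3% in lines 1, 3, 6 and 7 and 65.0, 64.6 and 57.9% in lines 2, 4 and 5 over 59 CpGs. The difference was -1.23 points, and the lines of each set were spread over more than 7 points. At Snrpn, the control region of the central cluster, the levels were 67.0, 66.9, 74.9 and 70% against 65.2, 76.8 and 67.1% (difference -0.0201 points). At both regions the MEF-1 lines lay above the MEF-2 clonal means of 47.5 and 45.3%. Inpp5f differed by 0.236 points over 41 CpGs. These lay near its transcript starts, scattered over chr7:128610807-128691236, and are not 1 short region.

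The secondary regions of the maternally methylated kind had differences of 9.88 points at Ndn, 6.40 at Mkrn3, 2.48 at Magel2 and -1.89 at Peg12. Those methylated on the paternal copy differed by 2.85 points at Igf2, a growth factor gene, and by -7.92 at Cdkn1c, a cell cycle inhibitor gene. A state closer to the maternal copy in the lowered lines was found at 7 of the 11 regions, including 3 of the 5 primary ones. It was found at 8 of the 13 imprinted regions of other chromosomes, so that the count on chromosome 7 does not stand out. Nespas and Gnas, whose regions overlap, are both among the 13. The maternal index averages the 11 regions, each read as the share of the maternal pattern. It was 49.8, 50.8, 51.0 and 48.5% in lines 1, 3, 6 and 7 and 46.0, 46.3 and 46.2% in lines 2, 4 and 5. All lowered lines lay above the reference lines, by 3.85 points (exact permutation p = 0.0571), and by 1.06 points with at least 20 reads per CpG (exact permutation p = 0.571). The parental library had 46.2% and the MEF-2 clonal lines 47.4% ± 1.78 (SD, n = 7). The planned form of this test, the distance of the index from 50%, was 0.865 points in the lowered and 3.83 in the reference lines (exact permutation p = 0.0571, adjusted p = 0.171 over 3 tests), and over the 5 primary regions its difference turned from -2.96 to 4.09 points.

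**Figure D4:**
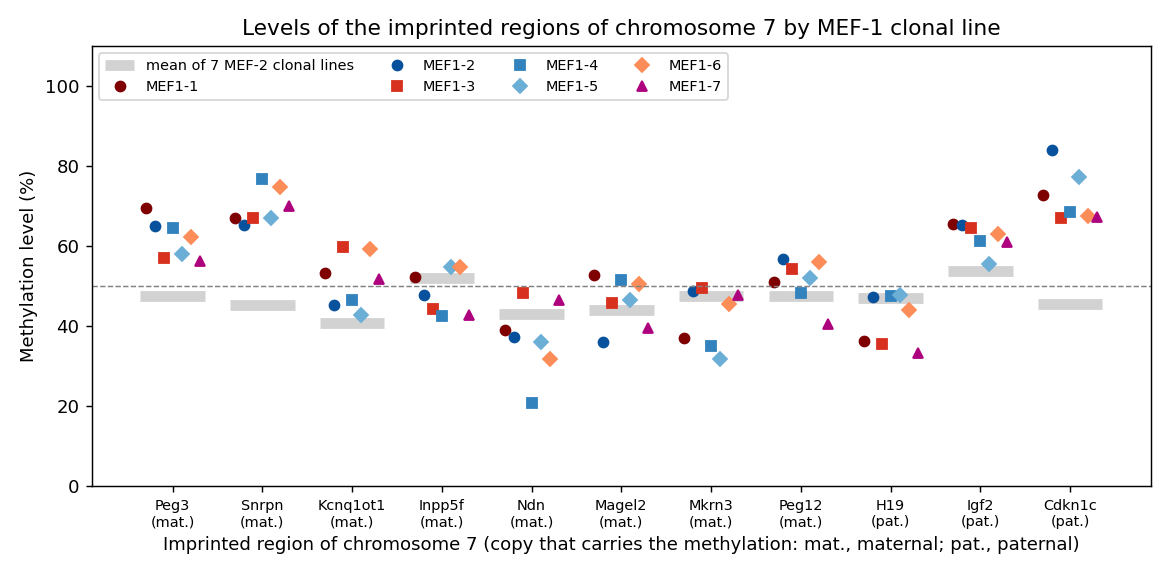
Methylation level (vertical axis, %) of the 11 imprinted regions of chromosome 7 (horizontal axis, with the copy that carries the methylation) in each MEF-1 clonal line. Red, orange and purple symbols are lines 1, 3, 6 and 7, blue symbols lines 2, 4 and 5, and grey bars the mean of 7 MEF-2 clonal lines. The colours separate at Kcnq1ot1, where the lowered lines are higher, and at H19, where they are lower.

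Reads in the paternal state, counted relative to the other chromosomes and to the mean of the reference lines, were fewer at both regions in each lowered line. The lines were chosen for low coverage of this chromosome, which fixes part of this difference, and the counts are given as a description. At Kcnq1ot1, where paternal reads are unmethylated, they stood at 0.644, 0.835, 0.657 and 0.687 in lines 1, 3, 6 and 7 and at 1.02, 0.982 and 1.00 in lines 2, 4 and 5. At H19, where they are methylated, they stood at 0.564, 0.723, 0.824 and 0.579 against 0.889, 1.08 and 1.03. Reads in the maternal state were at 0.902, 1.52, 1.17 and 0.906 at Kcnq1ot1 and at 0.901, 1.2, 0.950 and 1.05 at H19, with 0.919 to 1.05 and 0.898 to 1.08 in the reference lines. Elsewhere the maternal state was low too. Its reads stood at 0.806, 0.722 and 0.722 at Inpp5f in lines 1, 3 and 7 (0.961 to 1.05 in the reference lines) and at 0.761 and 0.811 at Peg3 in lines 3 and 7, whose paternal reads there were at 0.950 and 1.04.

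Taking the maternal copy as the one that stayed, the level at Kcnq1ot1 gave a share of cells with a lost paternal copy of 28.7, 45.2, 43.8 and 24.4% in lines 1, 3, 6 and 7, and the level at H19 gave 37.3, 39.4, 13.3 and 45%. For lines 2, 4 and 5 the same sums gave 1.95, 6.27 and -8.82% at Kcnq1ot1 and 0.985, -0.00636 and -0.989% at H19. Kcnq1ot1 and H19 were taken here because the sets of lines separated there, and the other primary regions did not give such shares. In lines 1, 3, 6 and 7 the same sums gave 26.3, -25.9, -0.722 and -29.8% at Peg3, -14.7, -15.3, 21.8 and -0.114% at Snrpn, and 14.7, -17.6, 22.9 and -24.5% at Inpp5f. The spread of the mid-level CpGs gave 32.5, 30.2, 0 and 20.8% in lines 1, 3, 6 and 7 and 13.2, 0 and 7.28% in lines 2, 4 and 5. The share of cells was thus not fixed by the levels in any of the lowered lines. Over these primary regions and the spread, from -14.7 to 37.3% was found in line 1 and from -25.9 to 45.2% in line 3. In line 6 it was from -0.722 to 43.8% and in line 7 from -29.8 to 45%. The secondary regions are not counted in these ranges.

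Whether the lines lost the same copy was also asked without imprinting, from the levels of pairs of lowered lines at the 1839 mid-level CpGs. Pearson's r across these CpGs, which share libraries and are not independent replicates, was 0.337 for lines 1 and 3, 0.239 for lines 1 and 6, 0.273 for lines 1 and 7, 0.250 for lines 3 and 6, 0.349 for lines 3 and 7 and 0.254 for lines 6 and 7. The other chromosomes gave 0.0987 to 0.164 for lines 1 and 3 and 0.192 to 0.293 for lines 3 and 7. In 5 of the 6 pairs chromosome 7 had the highest r of the 16 chromosomes, and for lines 6 and 7 another chromosome was higher (range 0.140 to 0.273). With the parental library r was 0.140, 0.168, 0.191 and 0.178 for lines 1, 3, 6 and 7, at or below the median of the other chromosomes.

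Agreement in side was partial. Where both lines lay outside 40 to 60%, they lay on the same side at 79.1% of 671 CpGs for lines 1 and 3, 71.6% of 514 for lines 1 and 6, 74.5% of 596 for lines 1 and 7, 75.0% of 500 for lines 3 and 6, 78.7% of 611 for lines 3 and 7 and 74.3% of 455 for lines 6 and 7. On the other chromosomes the highest share was 66.0% for lines 1 and 3 and 76.8% for lines 6 and 7. CpGs over 60% in line 1 had a median of 60.6% in line 3, and those under 40% in line 1 a median of 41.0%. In the parental library their medians were 51.3 and 50.0%.

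At the 288 mid-level regions of 500 bp the excess was less clear. Chromosome 7 had the highest r for lines 1 and 3 (0.427, others 0.244 to 0.392) and for lines 6 and 7 (0.422, others 0.232 to 0.405). For the other 4 pairs it ranked 4 to 11 of the 16 chromosomes. With the parental library, line 6 had an r of 0.536 on chromosome 7, also the highest of the 16 (others 0.340 to 0.519), and lines 1, 3 and 7 ranked 10 to 15. Regions average over CpGs, and there were fewer of them. The comparison of regions was the planned one, and that of single CpGs was added.

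**Figure D5:**
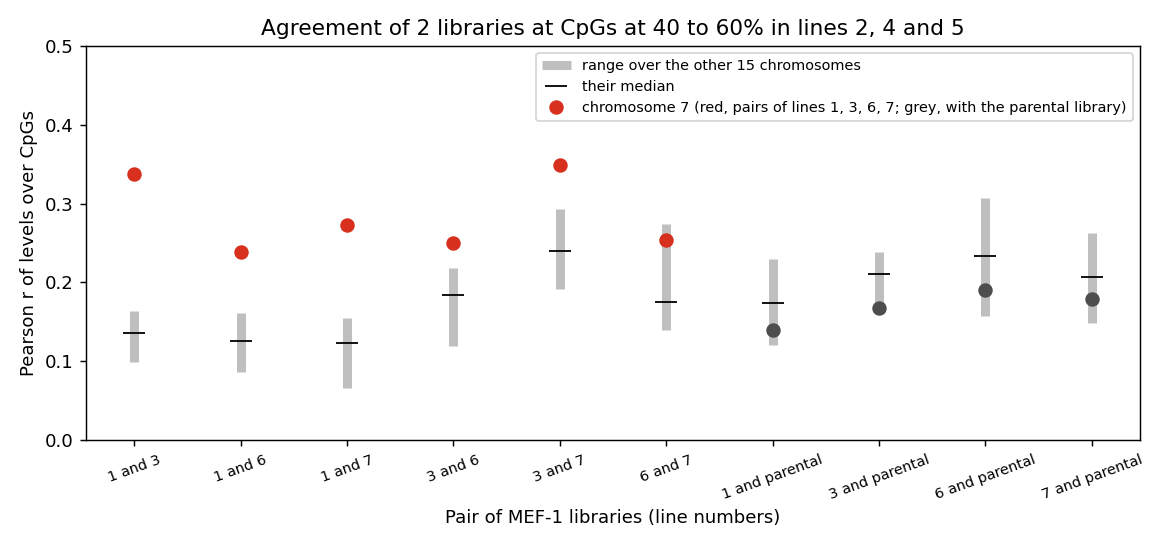
Pearson's r of the levels of 2 MEF-1 libraries over mid-level CpGs (vertical axis) for the pairs of lines 1, 3, 6 and 7 and for each of these lines with the parental library (horizontal axis). Circles are chromosome 7 and grey bars the range over the other 15 chromosomes with their median as a dash. Chromosome 7 lies above the bar for the pairs of lowered lines other than 6 and 7, and not above it for any pair with the parental library.

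Within the groups of lines that share the coverage of chromosome 18, Kcnq1ot1, H19 and the maternal index kept their directions, and the other regions were not examined singly. Lines 3, 6 and 7 against line 2 differed by 11.6 points at Kcnq1ot1 and by -9.73 at H19, and line 1 against lines 4 and 5 by 8.66 and -11.4. The index differed by 4.10 and 3.54 points. With 1 line on a side these are values without a useful test. The share of mid-level CpGs with lines apart was 1.11 times that of the other chromosomes for lines 3, 6 and 7 against line 2 and 1.07 times for line 1 against lines 4 and 5 (2.17 times for all lines). Fewer lines enter these comparisons, so that more CpGs have lines apart on every chromosome.

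Mid-level CpGs were not spread evenly over gene groups. In the imprinted list 66 of 517 CpGs (12.8%) were mid-level, compared with 2.40% of all CpGs of chromosome 7. The Zfp genes, the large family of zinc finger repressors, had 70 of 3880 (1.8%). Lines were apart at 1 of 13 mid-level regions of the Zfp genes, 1 of 2 of the Cyp2 genes and 1 of 1 each of the Trim and olfactory receptor genes. They were apart at 0 of 5 in the imprinted list and 0 of 2 at the Nlrp genes. These counts are too small to set against the 35 of 288 of the whole chromosome. Regions were given to a group only where they overlap its genes or the 1000 bp before them, so that the control region of H19 is not counted in the imprinted list here. The Cyp2 genes, oxidases of drugs and steroids, had 12 of 178 (6.74%) and the Trim genes 12 of 334 (3.59%). The receptor and protease families of the chromosome were hardly measured, with 132 CpGs at olfactory receptor genes (6 mid-level), 82 at vomeronasal receptor genes (3) and 94 at kallikrein genes (1).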

How the data were processed

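DNA methylation was measured by tcBS-seq in 16 libraries, grouped by their labels into 7 MEF-1 clonal, 7 MEF-2 clonal and 2 parental libraries. According to the study's methods and processing notes, reads of a SureSelect capture were trimmed with Trim Galore 0.6.0 and aligned to mm10 with Bismark, reads of mapping quality under 10 and biased read ends were dropped, and both strands of a CpG were combined. Whether PCR duplicates were removed is not stated. The deposited values are counts of methylated and unmethylated reads per CpG, with no normalization. The authors' table of the series keeps CpGs that had 10 reads or more in each library and leaves out chromosomes 12, 18, 19, X and Y. Its counts were used, and 2 further columns of values per sample (coverage and percentage), as well as the authors' scores, were not. Of the 76618 CpGs of chromosome 7, 76615 lay on a CG of the reference.

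A level is the percentage of reads at a CpG that were called methylated. Lines were compared by two-sided exact permutation tests (scipy 1.17.1). CpGs and 500 bp regions with at least 5 CpGs were tested by a quasi-binomial logistic model (F-test, dispersion not below 1) over the whole table, with Benjamini-Hochberg adjustment and a threshold of 0.05, and regions also by limma 3.58.1 on arcsine levels. The quasi-binomial model was run on simulated data with much larger shifts and no spread between lines beyond read sampling. That run does not show whether shifts of the size found here could be called. An imprinted region was the CpGs within 3000 bp of a transcript start at 30 to 70% over the MEF-2 clonal lines, with at least 5 CpGs. For H19 the CpGs 1000 to 5000 bp upstream of each of its transcript starts were taken, which reached into an exon of the gene. Genes came from GENCODE M21. Regions named were all imprinted regions of the list and the 6 highest and 6 lowest mid-level regions by difference. The share of cells f with a lost copy followed from levels of (1 - f)/(2 - f) for the lost and 1/(2 - f) for the kept copy, set against the reference lines. For the spread it was set against the other chromosomes of the same line, with negative values set to 0. Alternatives varied the level range, the read minimum, the windows, the dispersion and the lines. Wilson intervals (95%) cover counting error only. According to the paper, single cells were sorted into multi-well plates and each was passaged into its own line. The p-values measure the spread between these lines. The lines, regions and lists were chosen with earlier results of these data known.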

Additional observations from a re-analysis of the deposited data

Results flagged for a closer look

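Among 43 groups of 4 or 7 values that were examined for a single value far from the rest, 1 stood out, where chance alone gives about 1 in 20. At the region of Cdkn1c, methylated on the paternal copy, line 1 had the highest level of the 4 lowered lines at 72.7%, far from the other 3 lines at 67.1 to 67.4%. The reference lines had 84.0, 68.5 and 77.2%, so that line 1 lay within their range.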

How the results depend on the processing

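Leaving out single lines kept every direction. The difference of the share staying at 40 to 60% ran from -13.4 to -9.40 points and that of the SD from 1.16 to 2.32 (lowered lines only left out, since no reference line would remain outside the pair). The index distance ran from -3.17 to -2.74, the signed index from 3.53 to 4.35 and the mean level from 0.0853 to 0.169 points, and the ratio of CpGs with lines apart from 1.60 to 1.99. Kcnq1ot1 ran from 9.89 to 12.5 and H19 from -12.6 to -8.99 points, and 0 CpGs and regions were called each time.

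The distance of the maternal index from 50% turned to 2.31 points with no filter on the MEF-2 level and to 4.09 with primary regions alone, and was -0.0365 with at least 20 reads (exact permutation p = 0.971), while the signed index stayed positive. The distance cannot tell a move toward 50% from a move past it. With the dispersion as estimated, 148 of 76618 CpGs of chromosome 7 were called, out of 2164 of 1203687 in the whole table, a similar rate. The ratio of CpGs with lines apart was 1.36 with thinned reads, 1.11 for lines 3, 6 and 7 against line 2 and 1.07 for line 1 against lines 4 and 5. In each of these the CpGs were chosen anew by the reference lines used, as they were when a reference line was left out. At least 20 reads lowered the difference at Kcnq1ot1 to 7.80 points (exact permutation p = 0.171), and the lines then overlapped.

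No paired analysis was possible because the lines compared share no replicate number.

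With 4 against 3 lines the smallest p of the exact permutation test is 0.0571, so that this test could not pass 0.05. The level of a single CpG rests on a median of 22 to 32 reads per line. Ploidy was not measured, and the share of cells assumes 2 copies and a reference set without loss, although line 2 was itself slightly low in coverage. A loss in the sorted cell would be passed to all cells of its line. Coverage gave shares of 30.6, 33.9, 17.2 and 30.4% in lines 1, 3, 6 and 7 with 2 copies. With 4 copies it gave 61.1, 67.8, 34.5 and 60.7%. When a loss arose was not tested.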

Other observations

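Chromosome 7 was not the only chromosome with a changed coverage in these lines. Chromosome 7 was off by more than 0.1 in lines 1, 3 and 7, while line 6 at 0.900 lay at this limit. Such a coverage was found in addition on chromosomes 8, 13 and 17 of line 1, chromosome 14 of line 2, chromosomes 1 and 15 of line 5, chromosome 16 of line 6 and chromosomes 1 and 5 of line 7, and on none in lines 3 and 4. Gained chromosomes kept 52.4% of their CpGs at 40 to 60% (chromosome 13 of line 1, at 1.16) and 45.6% (chromosome 15 of line 5, at 1.29). Line 3 is thus the lowered line in which chromosome 7 alone, among the 16 chromosomes, was off by more than 0.1.

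Among the mid-level regions with lines apart, one in an intron of Tmem80, a transmembrane protein gene, had the lowest unadjusted p of the regression on chromosome 7. It was chosen after its values were seen. Over 13 CpGs (chr7:141328504-141328964) its levels were 46.9, 46.2, 44.4 and 43.1% in lines 1, 3, 6 and 7 and 54.5, 53.3 and 54.9% in lines 2, 4 and 5, with 51.9% in the parental library. The lines of each set lay within 4 points of each other.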
